A study of Mus musculus with 9 samples.

Results

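The 48 genes described here are transcription factors that direct the formation of non-blood tissues and are known Polycomb targets. They were chosen by name, and each is represented by the brightest probe set, on average over all 9 arrays, among those assigned to it alone. All 48 were among the 18193 genes measured. Expression was profiled on one-colour short-oligonucleotide arrays in L8057, a megakaryocytic leukaemia cell line of the mouse. CBFb (CBFb_KD) or Ring1b (Ring1b_KD) had been knocked down with short hairpins delivered by lentivirus, and Control cells had received the empty vector, with 3 arrays per group. All 3 groups, Control included, were selected with puromycin and given 50 nM of the phorbol ester TPA from 48 h after infection until RNA was isolated, 72 h later. The submitters call the arrays of a group a biological triplicate without saying whether they came from separate infections, so each p-value covers the scatter among these arrays alone. Precision is limited by their number, and a single transformed line stands in for megakaryocytes.

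Polycomb repressive complex 1 (PRC1), whose catalytic ubiquitin ligase is Ring1b (gene Rnf2), and the histone methyltransferase complex PRC2 hold many developmental regulators silent in cells of other lineages. In embryonic stem cells such regulators are among the best known Polycomb targets, and loss of the complexes can release them. CBFb is the partner of the DNA-binding RUNX proteins, and the study's title concerns recruitment of PRC1 by these core binding factors. The comparisons address whether regulators of other lineages differed in signal after either knockdown.

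Few regulators were called in either knockdown, and their median log2 fold change was close to 0 after quantile normalization (-0.0056 in CBFb_KD, -0.0010 in Ring1b_KD). In Ring1b_KD the median was 0.054 with the values as deposited, where 34 of the 48 were above 0. With those values all genes had a median of 0.032, and 53 of 70 olfactory and vomeronasal receptor genes were above 0. Over the 9 regulators above the array's floor the median after quantile normalization was 0.13. These 9 were picked by the group means being compared, Pax3 through the knockdowns alone. Of the 48, 39 stayed at this floor, defined below, in CBFb_KD, Ring1b_KD and Control alike, and the log2 fold changes against Control ran from -0.40 to 0.23 in CBFb_KD and from -0.24 to 0.39 in Ring1b_KD. In Ring1b_KD 2 regulators rose (4.17%), Hand1 and Nkx2-9, where 5.66% of all genes rose. In CBFb_KD 0 rose and 3 fell (6.25%), Dlx1, Msx2 and Gata6, where 7.78% of all genes rose and 7.6% fell. The counts are thus no higher than those shares, although 54.9% of all genes lay above the floor and only 18.8% of the regulators. In a bulk sample a change in the share of cells with a transcript and a change in RNA per cell cannot be told apart.

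The hairpins lowered their targets. Cbfb read 9.32, 9.14 and 9.12 (log2 signal) in CBFb_KD, against 12.27, 12.33 and 12.50 in Control, a log2 fold change of -3.17. Rnf2 read 9.08, 8.96 and 8.92 in Ring1b_KD, against 10.56, 10.68 and 10.72 in Control, a log2 fold change of -1.67, a 3.17-fold lower signal that stayed above the floor. Protein amounts were not analysed here. Transcripts of other Polycomb subunits moved as well. In Ring1b_KD Bmi1, a PRC1 partner of Ring1b, fell by 0.90 on the log2 scale (limma adjusted p = 3.0e-05). Of 18 PRC1 subunits 3 were called there, namely Rnf2 itself, Bmi1 and Pcgf3. Of 11 PRC2 subunits 3 were called, where 12.2% of all genes were. In CBFb_KD the PRC2 subunits Ezh2, its methyltransferase, and Suz12 fell by 0.61 and 0.60 (limma adjusted p = 0.0027 and 0.00038). Jarid2 rose by 0.69 (limma adjusted p = 0.0024). In CBFb_KD 7 of 11 PRC2 and 4 of 18 PRC1 subunits were called, where 15.4% of all genes were. The part of these changes in the results on the regulators was not tested. Of 10 megakaryocyte markers 8 were measured and 6 lay above the floor, Itga2b, Gp9, Gp1bb, Gp5, Pf4 and Ppbp, while Itgb3 and Vwf did not. In CBFb_KD 4 of these 8 markers rose (median log2 fold change of the 8, 0.71) and 0 fell, and in Ring1b_KD 0 rose and 1 fell, Vwf (median -0.04). The part of this in the results on the regulators was not tested. Arrays of a group correlated at 0.995 to 0.997 over all probe sets, and arrays of different groups at 0.987 to 0.994.

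Many promoters of such regulators are rich in CpG, the dinucleotide that marks the CpG islands at which Polycomb complexes are known to gather. The RefSeq promoter table (build GRCm38.p6) matched 35 of the 48 regulators, and the 250 bases upstream of the start were read for each. The median regulator promoter held 19 CpG dinucleotides at 64.8% GC, where the median over 14452 measured genes was 13 at 57.6%. An observed-to-expected CpG ratio over 0.6 with GC over 50% was met by 23 of the 35 (65.7%) and by 49.2% of measured genes. Of those at the floor 21 of 30 met it, and of those above the floor 2 of 5, Pax6 and Msx1. The windows of Nkx2-9, Pax9 and Nkx2-5, also above the floor, did not meet it and lie within the annotated span of their genes. The promoter of Msx2 is shown as that of a called regulator with a window outside the annotated gene, and those of Olig2 and Sox2 because their probe sets had the lowest signals of the 48. They run 5′ to 3′ toward the start site with each CpG in capitals, on the minus strand at chr13:53472781-53473030 for Msx2, and on the plus strand at chr16:91225300-91225549 for Olig2 and chr3:34649745-34649994 for Sox2.
Msx2: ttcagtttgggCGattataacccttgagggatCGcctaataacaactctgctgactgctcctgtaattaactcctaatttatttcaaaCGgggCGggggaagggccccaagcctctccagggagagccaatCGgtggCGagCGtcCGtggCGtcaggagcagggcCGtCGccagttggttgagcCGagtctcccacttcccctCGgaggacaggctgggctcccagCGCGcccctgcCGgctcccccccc
Olig2: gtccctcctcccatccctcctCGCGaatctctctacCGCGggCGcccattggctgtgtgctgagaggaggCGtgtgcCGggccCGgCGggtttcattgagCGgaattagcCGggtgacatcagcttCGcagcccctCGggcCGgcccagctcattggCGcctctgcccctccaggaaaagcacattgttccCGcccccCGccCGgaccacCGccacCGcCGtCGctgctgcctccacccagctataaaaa
Sox2: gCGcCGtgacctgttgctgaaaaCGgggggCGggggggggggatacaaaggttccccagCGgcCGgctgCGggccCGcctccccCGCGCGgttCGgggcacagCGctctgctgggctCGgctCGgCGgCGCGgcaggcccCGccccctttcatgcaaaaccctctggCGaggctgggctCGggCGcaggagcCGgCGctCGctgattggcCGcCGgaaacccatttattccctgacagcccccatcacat
The windows hold 16 CpG dinucleotides for Msx2, 22 for Olig2 and 27 for Sox2. Those of Dlx1 (22 CpG) and Nkx2-9 (13 CpG) overlap the annotated span of their genes, as do those of some uncalled regulators, such as Gata3 and Nkx2-2. The RUNX core TGTGGT, searched on both strands, was in 1 of the 35 windows, that of Foxc1, and in 11.7% of measured genes. Its variant TGCGGT, also searched on both strands and never matching at the same position as the core, was in 2, those of Nkx2-2 and Irx3, and in 6.57% of measured genes. These counts describe the letters of the windows alone.

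The floor was set from genes that belong to sensory neurons. It is the 95th percentile of the mean signals of 70 olfactory and vomeronasal receptor genes, 7.19 on the log2 scale, where the median gene stood at 7.42. Probe sets differ in how brightly they read the same amount of RNA, so a signal above the floor does not show expression and one below it does not show absence. By this measure 39 regulators (no group mean above 7.19) stayed at the floor and 9 (18.8%) were above it in at least 1 group, compared with 54.9% of all genes. Of 20 regulators of blood cells 15 were above it, among them Gata1 and Tal1, and so were all 11 PRC2 subunits and 15 of 18 measured PRC1 subunits. The 5 blood regulators at the floor were Gfi1 (3.98), Nfe2 (5.39), Cebpa (6.18), Irf8 (6.21) and Meis1 (6.79), and Spi1 (7.20) was just above it. The median signal was 5.93 for the developmental regulators, 5.34 for the receptor genes and 10.85 for the blood regulators. Of the receptor genes themselves 5 of 70 lay above the floor.

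**Figure D1:**
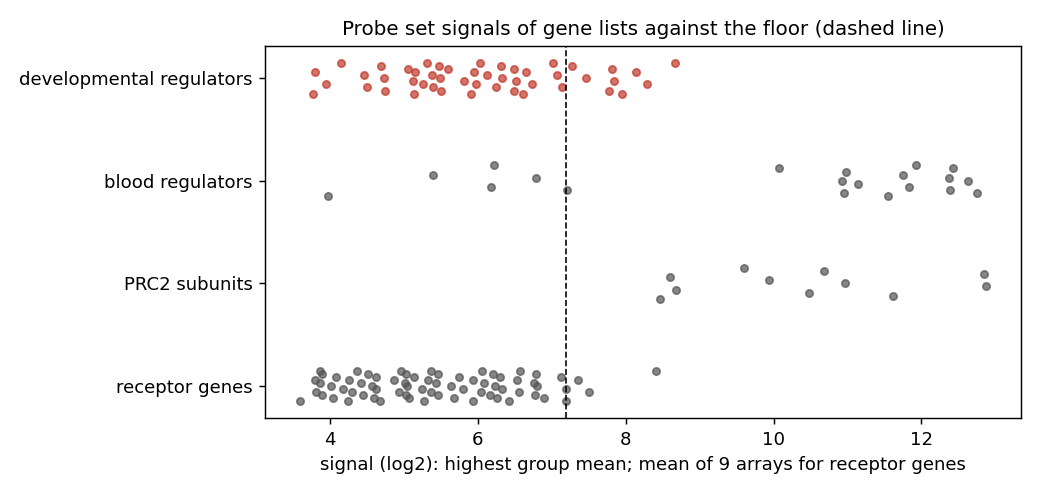
Probe set signals (log2) of 48 developmental regulators, 20 blood regulators, 11 PRC2 subunits and 70 olfactory and vomeronasal receptor genes. Each point is a gene at its highest group mean (receptor genes at their mean over 9 arrays), and the dashed line is the floor of 7.19; 9 of the 48 developmental regulators lie to its right, none beyond 8.66.

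Neural and neural crest factors made up 22 of the genes, and 19 of them were at the floor. Olig2, which specifies oligodendrocytes and motor neurons, and Sox2, a factor of neural stem cells and pluripotent cells, were the dimmest, with highest group means of 3.77 and 3.79. Zic1 (3.95), Otx2 (4.14), Lhx8 (4.45), Lhx2 (4.50), Dlx2 (4.73), Nkx2-2 (4.74), Neurod1 (5.14), Neurog2 (5.25), Evx1 (5.39), Pax7 (5.47), Irx5 (5.48), Sox1 (5.59), Irx3 (5.90), Neurog1 (6.49) and Isl1 (6.49) followed. Dlx1 (7.06) and Foxd3 (7.13) were just under the floor. Those above it were Pax3 (7.27), which acts in neural crest and muscle precursors, Pax6 (7.84), the factor of eye and forebrain, and Nkx2-9 (8.66), a homeodomain factor of the ventral neural tube. Pax3 passed on 5 of the 9 arrays and Pax6 and Nkx2-9 on all 9.

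Of 10 endoderm and trophoblast regulators 9 were at the floor, with highest group means from 4.69 for Gata3 to 6.73 for Gata4. They were Gata3, Foxa1, Pax8, Eomes, Sox17, Cdx2, Gata6, Foxa2 and Gata4, a set that includes the pioneer factors of liver and gut and the trophoblast regulators Cdx2 and Eomes. Pax9, a factor of the pharyngeal pouches and teeth, was above it at 7.95. Heart and lateral mesoderm factors were split, with Tbx2 (5.12), Foxc1 (5.49), Hand2 (5.98) and Tbx3 (6.65) at the floor and Tbx5 (7.46), Foxf1 (7.77), Hand1 (7.81) and Nkx2-5 (8.28) above it on all 9 arrays. The kidney and gonad factors Wt1 (5.05), Lhx1 (5.37) and Six2 (7.02) were at the floor. Of the skeletal, limb and facial factors Dlx5 (5.14), Sox9 (6.02), Msx2 (6.13) and Barx1 (6.52) were at the floor and Msx1 (8.14) was above it.

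**Figure D2:**
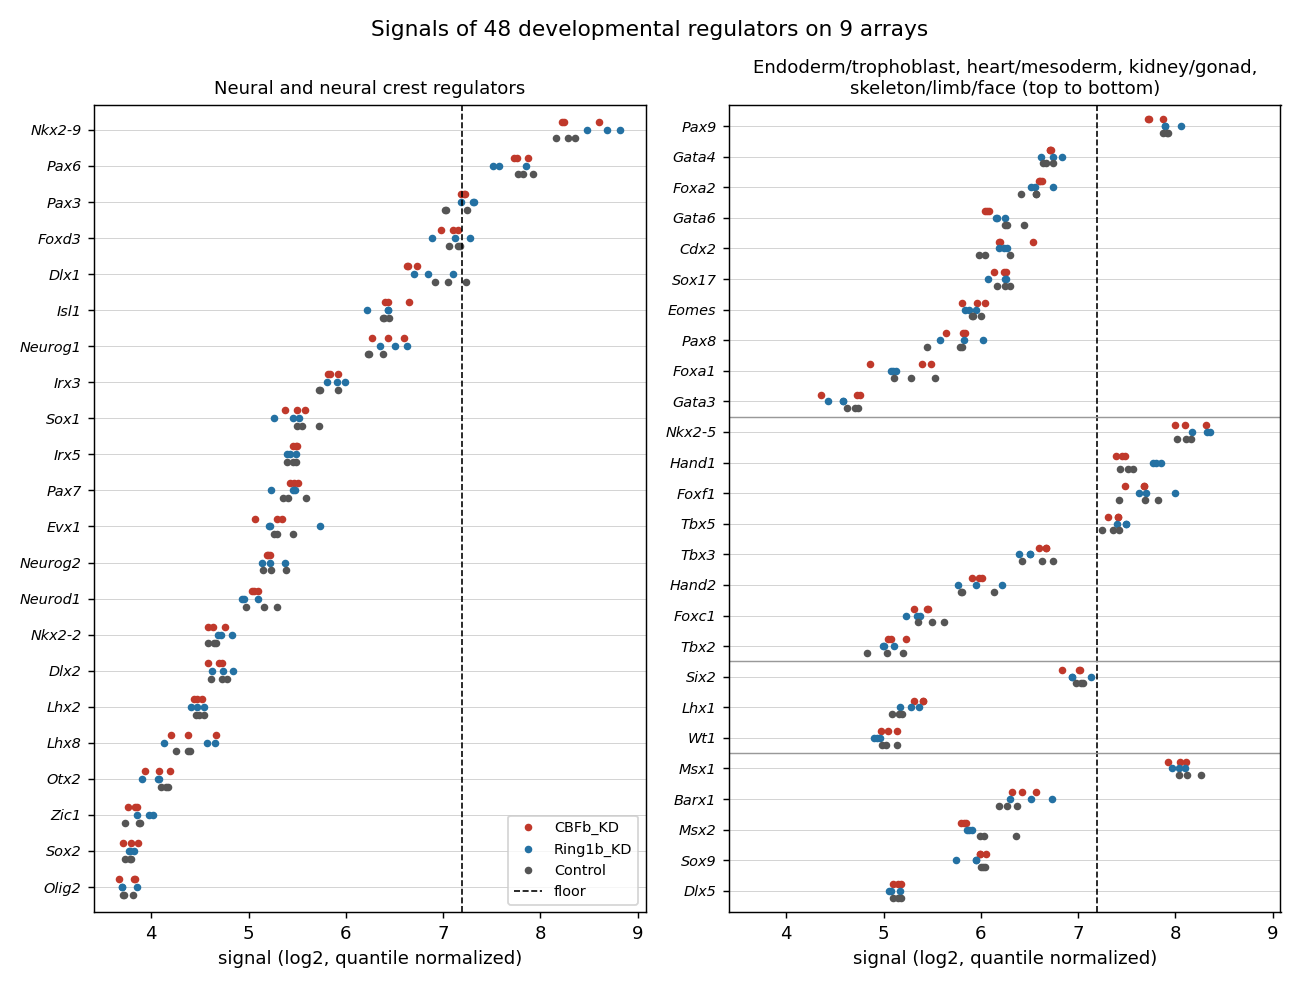
Signals (log2, quantile normalized) of the 48 regulators on every array, with 3 points each for CBFb_KD (red), Ring1b_KD (blue) and Control (grey) and the floor of 7.19 as a dashed line. For most genes the groups lie on top of each other, and the signal differs far more between probe sets, from below 4 to above 8, than between groups.

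As a set the regulators had nearly the same signal on every array. Their median signal was 5.92, 5.89 and 5.88 in CBFb_KD and 5.91, 5.88 and 5.90 in Ring1b_KD, against 5.96, 5.86 and 5.95 in Control. The groups overlap in this measure. From 8 to 10 regulators were above the floor on any 1 array. Within groups the regulators had a median SD of 0.096, that of all genes being 0.109, and Foxa1 varied most (0.23). Between CBFb_KD and Control the median log2 fold change of the 48 was -0.0056 (all genes -0.014, receptor genes -0.035), with 23 above 0 and 25 below. Between Ring1b_KD and Control it was -0.0010 (all genes 0.0075, receptor genes 0.026), with 24 above 0 and 24 below. With the values as deposited, in which the Ring1b_KD arrays had the highest medians, the Ring1b_KD medians were 0.054 for the regulators, 0.032 for all genes and 0.096 for the receptor genes. Both comparisons share the Control arrays.

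Changes were tested with limma over all 18193 genes, and a gene was called at a Benjamini-Hochberg adjusted p under 0.05. In CBFb_KD 0 of the 48 regulators were called higher and 3 were called lower, where 7.78% of all genes were called higher and 7.6% lower. At an unadjusted p under 0.05 there were 4 (25.2% of all genes). In Ring1b_KD 2 were called higher and 0 lower, where the shares over all genes were 5.66% and 6.57%, and 4 had an unadjusted p under 0.05 (26.9% of all genes). Between CBFb_KD and Ring1b_KD 1 was called, lower in CBFb_KD, where 9.31% of genes were called lower, 10.1% higher and 19.4% in all, and 3 had an unadjusted p under 0.05 (31.7% of all genes). The share of regulators called was 6.25% in CBFb_KD and 4.17% in Ring1b_KD, below the 15.4% and 12.2% of all genes called. Of the 70 receptor genes, 65 of them at the floor, 0 were called in CBFb_KD and 2 (2.86%) in Ring1b_KD.

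Complete separation of the arrays is a weaker criterion than a call. In CBFb_KD against Control 2 regulators were higher on all arrays, Foxa2 and Lhx1 (14.7% of all genes), and 3 lower, Dlx1, Gata6 and Msx2 (16.9%; 31.6% in all). In Ring1b_KD against Control 4 were higher, Nkx2-2, Nkx2-9, Nkx2-5 and Hand1 (16.3%), and 5 lower, Otx2, Gata3, Wt1, Sox9 and Msx2 (16.6%; 32.9% in all). Between CBFb_KD and Ring1b_KD 3 were higher in CBFb_KD, Tbx3, Wt1 and Sox9 (16.2%), and 4 lower, Gata6, Pax9, Hand1 and Msx2 (17.6%; 33.8% in all). Those that separated from Control without a call had log2 fold changes from -0.24 (Msx2 in Ring1b_KD) to 0.23 (Lhx1 in CBFb_KD). These extremes were close in size to the -0.26 of Gata6, which was called in CBFb_KD. The others were smaller in size, down to 0.10 for Foxa2 in CBFb_KD. Gata3, of trophoblast and T cells, read 4.43, 4.59 and 4.58 in Ring1b_KD, against 4.63, 4.71 and 4.73 in Control (-0.16, limma adjusted p = 0.339). Wt1, of kidney and gonad, read 4.96, 4.94 and 4.90 in Ring1b_KD, against 4.98, 5.02 and 5.14 in Control (-0.12, limma adjusted p = 0.338). In both genes the nearest arrays of the groups were only a few hundredths of a log2 unit apart.

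Intervals were computed for the signal of each gene alone, without adjustment for the number of genes or comparisons. No 95% confidence interval of the 48 reached a 2-fold difference in any of the 3 comparisons. In Ring1b_KD the highest upper bound was 0.65 for Nkx2-9 (1.57-fold) and the lowest lower bound -0.52 for Foxa1. In CBFb_KD the highest upper bound was 0.43 for Cdx2 (1.34-fold) and the lowest lower bound -0.63 for Dlx1. These bounds hold for the signal. They bound no change in transcript number for probe sets at the floor.

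**Figure D3:**
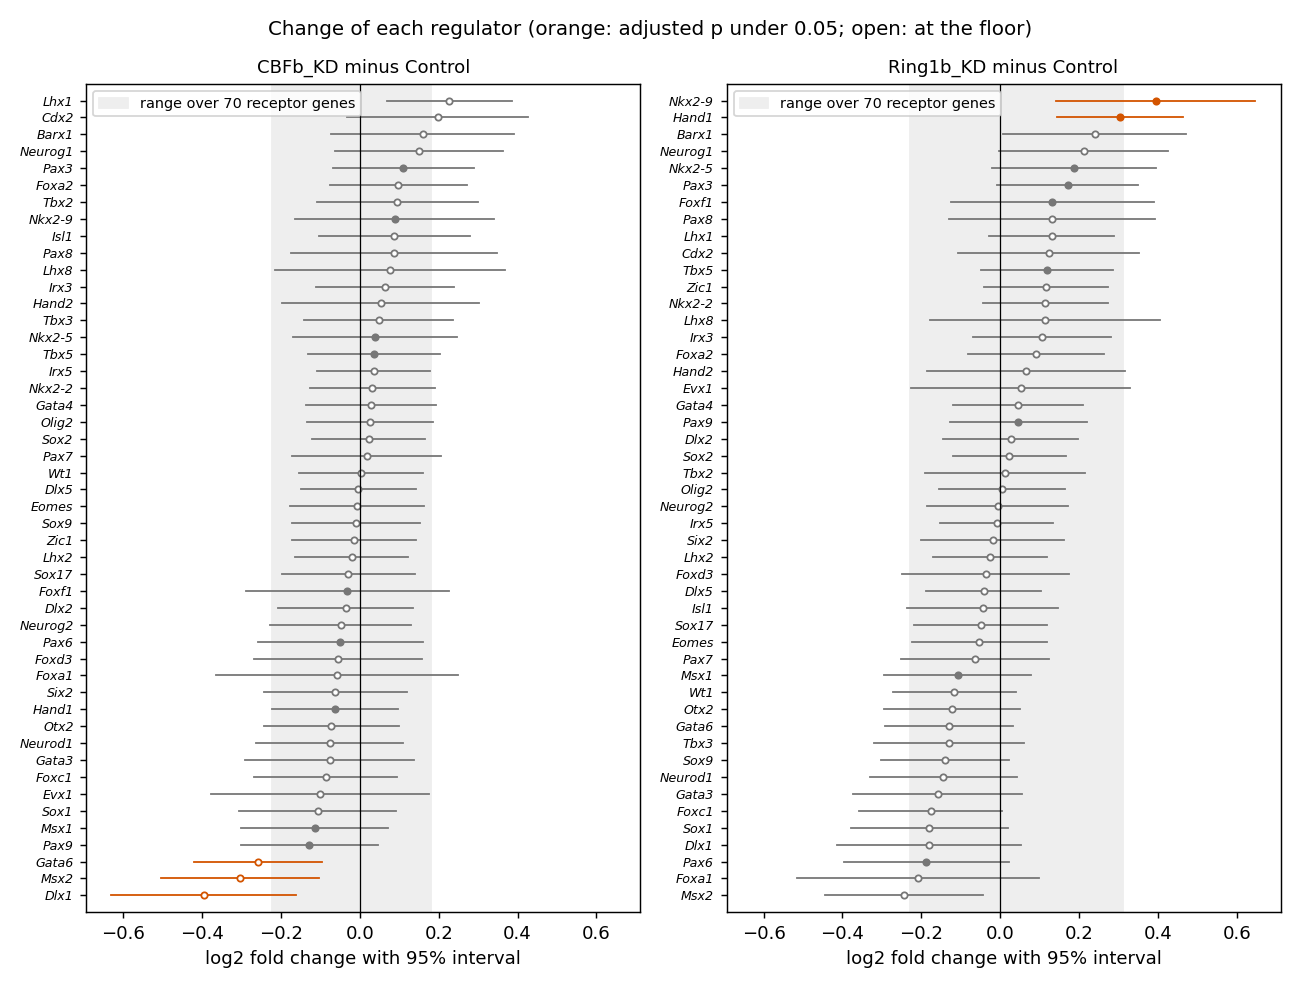
Log2 fold change of each of the 48 regulators with its 95% interval, in CBFb_KD minus Control (left) and Ring1b_KD minus Control (right). Orange marks an adjusted p under 0.05, open points are genes at the floor, and the grey band spans the 70 receptor genes (-0.22 to 0.18 in CBFb_KD, -0.23 to 0.31 in Ring1b_KD); 3 regulators fell in CBFb_KD and 2 rose in Ring1b_KD.

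Hand1, a basic helix-loop-helix factor of heart, lateral mesoderm and trophoblast (chromosome 11, 57828713 to 57832147 on GRCm38.p6), had the lowest adjusted p of the 48 in Ring1b_KD. It read 7.80, 7.77 and 7.85 in Ring1b_KD, against 7.52, 7.43 and 7.57 in Control. All 3 Ring1b_KD arrays were above all 3 Control arrays, and the difference was 0.30 ± 0.07 (SE, log2, limma adjusted p = 0.0181), or 1.23-fold. In CBFb_KD it read 7.45, 7.39 and 7.48, which overlapped Control (-0.06, limma adjusted p = 0.699). The direct comparison of CBFb_KD with Ring1b_KD passed (-0.37 ± 0.07, SE, limma adjusted p = 0.0039). Each of these calls rests on 1 of 2 probe sets. The other had a log2 fold change of 0.007 between CBFb_KD and Ring1b_KD. At 6.40 in Ring1b_KD and 6.50 in Control, it had a log2 fold change of -0.10 against Control. Over the mean of both probe sets the value against Control was 0.10 (limma adjusted p = 0.324). For the brightest probe set without Control array 2 it was 0.26 (limma adjusted p = 0.0846).

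Nkx2-9 (chromosome 12, 56611389 to 56613569) read 8.48, 8.82 and 8.68 in Ring1b_KD, against 8.36, 8.15 and 8.28 in Control. The groups did not overlap, and the difference was 0.39 ± 0.12 (SE, log2, limma adjusted p = 0.0442), or 1.31-fold. In CBFb_KD it read 8.60, 8.22 and 8.25, with array 1 inside the Ring1b_KD range, and neither the difference from Control (0.09, limma adjusted p = 0.737) nor that from Ring1b_KD (-0.31, limma adjusted p = 0.0876) was called. It has 1 probe set. The call against Control was lost with the values as deposited (0.34, limma adjusted p = 0.0655), after median centring (0.25, limma adjusted p = 0.13), over averaged probe sets (0.39, limma adjusted p = 0.0533) and without any 1 of CBFb_KD array 3, Ring1b_KD arrays 2 and 3 or the Control arrays (0.32 to 0.44). Of the 70 receptor genes 2 were also called higher in Ring1b_KD, and the highest log2 fold change over all 70 was 0.31. The part of such shifts in these results was not tested.

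Dlx1, a homeodomain factor of forebrain interneurons (chromosome 2, 71528113 to 71533981), read 6.73, 6.63 and 6.64 in CBFb_KD, against 6.92, 7.23 and 7.05 in Control. All 3 CBFb_KD arrays were below Control, with a log2 fold change of -0.40 ± 0.11 (SE), or 1.32-fold lower (limma adjusted p = 0.0244). In Ring1b_KD it read 7.10, 6.70 and 6.85, overlapping Control (-0.18, limma adjusted p = 0.312). The limma call was lost without CBFb_KD array 2 or 3 or Control array 2 or 3, where the log2 fold change ran from -0.41 to -0.31.

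Msx2, a homeodomain factor of skull, limb and tooth buds (chromosome 13, 53466881 to 53472780), read 5.83, 5.79 and 5.84 in CBFb_KD and 5.90, 5.88 and 5.86 in Ring1b_KD, against 6.36, 6.03 and 5.99 in Control. Both knockdowns lay below Control, with Control array 1 standing above the rest. The difference was called in CBFb_KD (-0.30 ± 0.09, SE, limma adjusted p = 0.0415) and not in Ring1b_KD (-0.24, limma adjusted p = 0.108), and that between CBFb_KD and Ring1b_KD was -0.06 (limma adjusted p = 0.71). Without Control array 1 the CBFb_KD value was -0.19 (limma adjusted p = 0.149). The call was also lost without any 1 of the CBFb_KD arrays or Ring1b_KD array 1 or 2, with deposited values (limma adjusted p = 0.0661) and in a fit of the 2 groups alone (limma adjusted p = 0.0697). Over the mean of its 2 probe sets the fall was called in Ring1b_KD as well (-0.22, limma adjusted p = 0.0379).

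Gata6, a zinc finger factor of endoderm and heart (chromosome 18, 11052510 to 11085636), read 6.06, 6.05 and 6.09 in CBFb_KD, against 6.27, 6.44 and 6.25 in Control. The groups did not overlap (-0.26 ± 0.07, SE, limma adjusted p = 0.0333). In Ring1b_KD it read 6.25, 6.17 and 6.16, overlapping Control by a narrow margin (-0.13, limma adjusted p = 0.298). Its 2 dimmer probe sets moved by 0.12 and -0.17 (log2) in CBFb_KD, and over the mean of all 3 the value was -0.10 (limma adjusted p = 0.407). The call was also lost without any 1 of the CBFb_KD or Control arrays. Dlx1, Msx2 and Gata6 all had group means below the floor, and their differences between CBFb_KD and Ring1b_KD were not called.

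**Figure D4:**
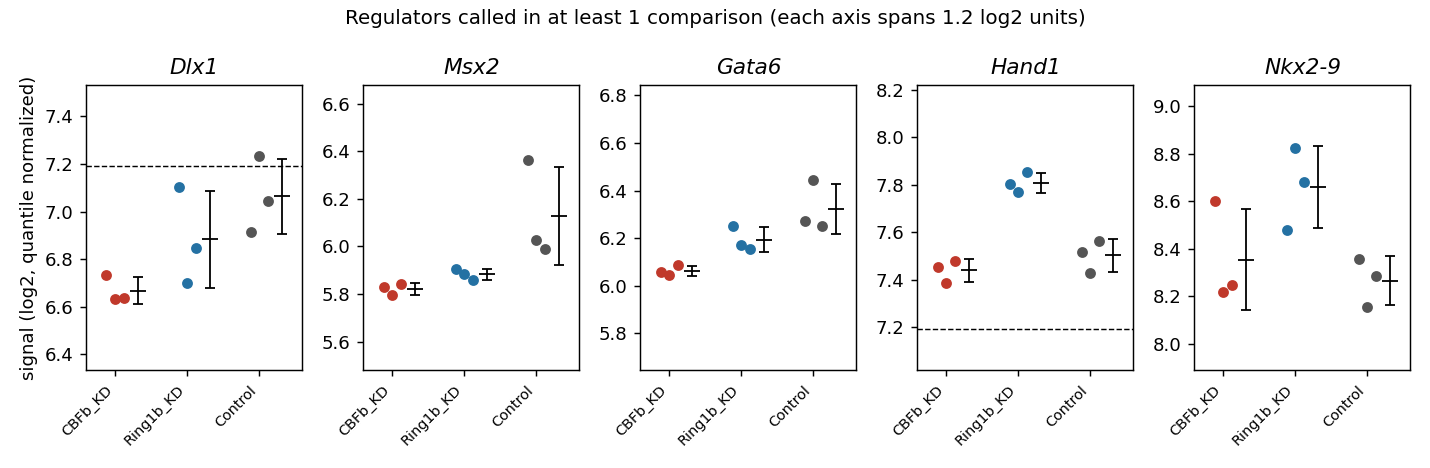
Signals (log2, quantile normalized) of the 5 regulators called in at least 1 comparison, with points for the 3 arrays of CBFb_KD, Ring1b_KD and Control and, beside them, the mean and SD (n = 3). Each axis spans 1.2 log2 units and the dashed line is the floor; Hand1 and Nkx2-9 are higher in Ring1b_KD than in Control, and Dlx1, Msx2 and Gata6 lower in CBFb_KD than in Control.

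The other regulators above the floor were not called in any comparison. Nkx2-5, the cardiac homeodomain factor, read 8.32, 8.09 and 7.99 in CBFb_KD and 8.36, 8.17 and 8.32 in Ring1b_KD, against 8.11, 8.02 and 8.16 in Control. The Ring1b_KD arrays were just above Control (0.19, limma adjusted p = 0.235), a difference that was not called. Foxf1, of lung and gut mesenchyme, read 7.48, 7.67 and 7.67 in CBFb_KD and 7.63, 7.99 and 7.70 in Ring1b_KD, against 7.69, 7.42 and 7.82 in Control, with all groups overlapping. Tbx5, of heart and forelimb, read 7.41, 7.41 and 7.31 in CBFb_KD and 7.40, 7.49 and 7.49 in Ring1b_KD, against 7.24, 7.42 and 7.36 in Control. These groups overlapped too, with log2 fold changes of 0.04 and 0.12.

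Pax3 read 7.19, 7.22 and 7.22 in CBFb_KD and 7.31, 7.18 and 7.31 in Ring1b_KD, against 7.02, 7.03 and 7.25 in Control. Pax6 read 7.73, 7.88 and 7.76 in CBFb_KD and 7.86, 7.58 and 7.52 in Ring1b_KD, against 7.82, 7.93 and 7.76 in Control. Neither was called, and each overlapped Control in both knockdowns. Pax9 read 7.88, 7.71 and 7.73 in CBFb_KD and 7.90, 8.06 and 7.89 in Ring1b_KD, against 7.87, 7.93 and 7.91 in Control, so that the CBFb_KD arrays lay below those of Ring1b_KD without a call (-0.17, limma adjusted p = 0.157). Msx1, a paralog of Msx2 in the same tissues, read 8.04, 8.11 and 7.93 in CBFb_KD and 8.10, 7.96 and 8.04 in Ring1b_KD, against 8.04, 8.27 and 8.12 in Control. It had log2 fold changes of -0.11 in both knockdowns and was not called. The other probe set of Msx1, also above the floor, had the opposite sign (0.13 in CBFb_KD and 0.05 in Ring1b_KD).

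Among regulators at the floor that were called in no comparison, log2 fold changes reached 0.24 in Ring1b_KD, for Barx1, and 0.23 in CBFb_KD, for Lhx1. Barx1, a homeodomain factor of jaw and stomach mesenchyme named here after its values were seen, read 6.52, 6.30 and 6.73 in Ring1b_KD, against 6.19, 6.26 and 6.37 in Control, and these overlapped (limma adjusted p = 0.171). Lhx1, of kidney and head organizer, read 5.41, 5.31 and 5.40 in CBFb_KD, against 5.09, 5.19 and 5.16 in Control (0.23, limma adjusted p = 0.0555), and passed when the fit used only the arrays of the groups compared (limma adjusted p = 0.0469). In Ring1b_KD it read 5.17, 5.37 and 5.28 and overlapped Control. Cdx2, of trophoblast and intestine, read 6.54, 6.20 and 6.19 in CBFb_KD, against 6.30, 6.05 and 5.99 in Control, and these overlapped (0.20, limma adjusted p = 0.284). Foxa1, the pioneer factor of liver and other endoderm, read 5.09, 5.08 and 5.13 in Ring1b_KD, against 5.11, 5.53 and 5.28 in Control (-0.21, limma adjusted p = 0.384). In CBFb_KD Foxa1 read 4.86, 5.49 and 5.39, the widest spread of any of the 48. Tbx3, of limb and heart, read 6.67, 6.60 and 6.67 in CBFb_KD, against 6.51, 6.39 and 6.51 in Ring1b_KD, and this was not called (0.18, limma adjusted p = 0.189).

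By tissue, no group of regulators had more than 1 call in a knockdown, where 15.4% of all genes were called in CBFb_KD and 12.2% in Ring1b_KD. Among the 22 neural and neural crest factors 0 rose and 1 fell in CBFb_KD (Dlx1), and 1 rose and 0 fell in Ring1b_KD (Nkx2-9). Among the 10 endoderm and trophoblast factors 1 fell in CBFb_KD (Gata6) and 0 were called in Ring1b_KD. Among the 8 heart and lateral mesoderm factors 0 were called in CBFb_KD and 1 rose in Ring1b_KD (Hand1). The 3 kidney and gonad factors had 0 calls in both, and of the 5 skeletal, limb and facial factors 1 fell in CBFb_KD (Msx2). With the same test, 103 other genes of the same transcription factor families had 3 calls upward and 3 downward in CBFb_KD and 2 upward and 4 downward in Ring1b_KD. Of these relatives 39 (37.9%) were above the floor. Of 27 genes that mark differentiated non-blood cells 9 (33.3%) were above the floor, the brightest being Col1a2 (11.86) and Epcam (9.97). By the limma test 1 of the 27 rose and 1 fell in CBFb_KD, the neuronal genes Tubb3 (0.59) and Syp (-0.55), both at the floor. In Ring1b_KD 0 were called, where 2 had an unadjusted p under 0.05.

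Several regulators had more probe sets, 84 in all for the 48 genes, and 25 genes had more than 1. Only 2 of the 36 probe sets not chosen were above the floor. Tested over all 45037 probe sets, Dlx1 in CBFb_KD (limma adjusted p = 0.0431) and Hand1 in Ring1b_KD (limma adjusted p = 0.0319) were still called. Nkx2-9 in Ring1b_KD (limma adjusted p = 0.0651), Gata6 in CBFb_KD (limma adjusted p = 0.0570) and Msx2 in CBFb_KD (limma adjusted p = 0.0677) were not. In the same test 1 of these 36 was called in Ring1b_KD, a dim probe set of Pax9 that fell by 0.46 on the log2 scale (limma adjusted p = 0.0446, 8.48% of probe sets called), while the brightest of Pax9 had a log2 fold change of 0.05. None of the 36 was called in CBFb_KD, where 9.64% of probe sets were. Between the knockdowns 2 were called, 1 of Foxf1 (-0.32, limma adjusted p = 0.0346) and 1 of Tbx3 (-0.29, limma adjusted p = 0.0169), both lower in CBFb_KD, where 13.4% of probe sets were called. For Tbx3 this was opposite in sign to the brightest probe set.

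**Figure D5:**
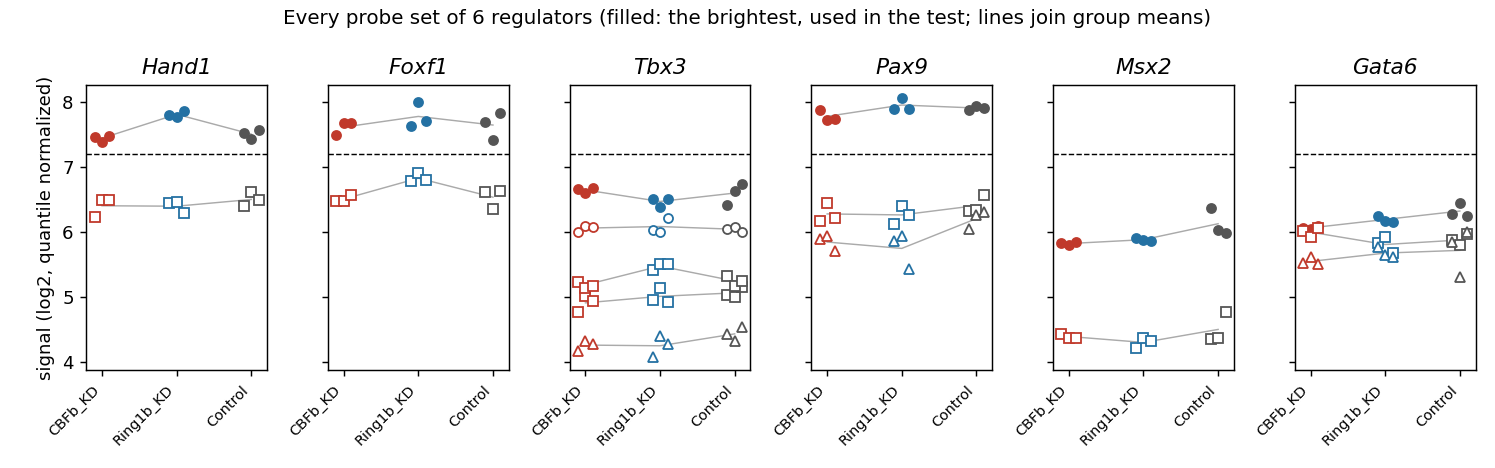
Signals (log2, quantile normalized) of every probe set of 6 regulators on each array, by group. Filled points are the brightest probe set, used in the test, open points the others, grey lines join group means and the dashed line is the floor; for Hand1 the brightest probe set is higher in Ring1b_KD (7.81, against 7.50 in Control) and the other is not (6.40, against 6.50).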

How the data were processed

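The deposited table holds log2 signals of 45101 probe sets on each of 9 arrays, as judged from their range of 3.23 to 15.35. What the authors did to make these log2 values (software, background, summary, normalization) is not given in the sources used here. Array medians ran from 6.51 to 6.65, highest in Ring1b_KD, so values were quantile normalized with limma 3.58.1 (R 4.3.3), and 64 control probe sets were then left out. Gene symbols came from the platform annotation, and coordinates and promoters from RefSeq (GRCm38.p6). Group means were fitted to all 9 arrays with lmFit and eBayes(trend = TRUE) and checked on simulated data. The regulators, gene lists and tests were chosen with earlier results of these data known. Values on every array are given for regulators that were called, above the floor, or among the 2 highest and 2 lowest fold changes of a comparison. Alternatives were other scalings, probe set rules, filters, variance models, a replicate block and leaving out each array. The 3 same-numbered pairs of CBFb_KD and Control arrays had correlated deviations (0.20 to 0.38), all over 0.1, so the numbers may pair these arrays, although the labels name no shared batch. Those of the other comparisons ran from -0.07 to 0.15, not all over 0.1, and were not taken as pairs.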

Additional observations from a re-analysis of the deposited data

Results flagged for a closer look

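Hand1 differed between the knockdowns by a test of that difference itself. Its log2 signal was 7.44 ± 0.05 (SD, n = 3) in CBFb_KD and 7.81 ± 0.04 in Ring1b_KD, a difference of -0.37 (limma adjusted p = 0.0039). All 3 CBFb_KD arrays were below all 3 Ring1b_KD arrays. The difference ran from -0.39 to -0.34 as each array was left out and was called each time. These values come from the brightest of its 2 probe sets. The other had a difference of 0.007 (limma adjusted p = 0.976 over all probe sets). Over the mean of the 2 the difference was -0.18 (limma adjusted p = 0.0584).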

How the results depend on the processing

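Few calls among the regulators were stable, and no called value changed sign under any alternative run. In CBFb_KD 3 regulators were called with all arrays, 0 to 3 as each array was left out (0 without CBFb_KD array 2 or 3, 1 without CBFb_KD array 1 or any 1 Control array) and 0 when only genes above the floor were tested, which leaves Dlx1, Msx2 and Gata6 out. In Ring1b_KD 2 were called, and 1 with deposited values, after median centring or over averaged probe sets (there Msx2, lower), and 0 to 2 as each array was left out (0 without Control array 2, 1 without CBFb_KD array 3, Ring1b_KD array 2 or 3 or Control array 1 or 3). Between the knockdowns 1 was called, 0 with the mean of probe sets and 1 to 3 without 1 array (3 without CBFb_KD array 1, 2 without Ring1b_KD array 1). With the replicate number as a block the limma counts stayed at 3, 2 and 1 for these comparisons, and no call changed. In a fit of the CBFb_KD and Control arrays alone with this block, chosen after seeing the data, the same 3 regulators were called, and 3903 genes in all (3142 with the block over 9 arrays). The median log2 fold change of the regulators in Ring1b_KD was 0.054 as deposited (all genes 0.032, receptor genes 0.096). It was 0.13 over the 9 above the floor, which were picked by the group means being compared. Between the knockdowns the median of the regulators was -0.074 as deposited (all genes -0.044, receptor genes -0.111) and -0.15 over those 9. The cause was not tested. With the mean of probe sets 4 regulators were above the floor. Other floors gave 6 to 12. Over all genes, calls numbered 1752 in CBFb_KD without Control array 3 and 1852 without CBFb_KD array 2 (2798 with all arrays), and 1144 in Ring1b_KD without Control array 3 and 1225 without Control array 2 (2225 with all arrays). Of 811 values of named regulators under the alternatives 31 lost a call and 7 gained one. Most of the 811 belong to differences not called in the main fit, which had no call to lose. As each of the 9 arrays was left out, Dlx1 kept its call in CBFb_KD 5 times, Gata6 3 times and Msx2 3 times. In Ring1b_KD Hand1 kept its call 8 times and Nkx2-9 3 times. Under the 8 other alternatives these 5 counts were, in the same order, 8, 7, 6, 7 and 5.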
